A study of Mus musculus with 9 samples.

Results

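The insulin-like growth factor (IGF) system was described in mouse activated hepatic stellate cells (aHSCs), through its ligands Igf1 and Igf2, its receptors Igf1r and Igf2r, and its binding proteins Igfbp2 to Igfbp7. Members were every probe carrying one of these 10 gene symbols on the Illumina MouseWG-6 v2.0 array, which holds 30869 symbols. They had 23 of the 45281 gene probes. Of these, 17 probes, standing for 9 genes, were detected on at least 3 arrays and were tested with the 20573 probes that passed that filter. Igfbp2 did not pass.

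All 9 samples came from adult WT1GFP/+ mice of strain C57/Bl6, a knock-in line in which one WT1 copy carries green fluorescent protein (GFP), so the allele was shared by every group. The labels give every sample as male, although the study used both sexes for its cultures. WT1-high cells (GFP high, 3 arrays) and WT1-intermediate cells (GFP low, 3 arrays) were sorted directly from livers made fibrotic by repeated intraperitoneal carbon tetrachloride, and these 6 arrays came from 3 animals. WT1-negative cells (GFP negative, 3 arrays) came from uninjured livers, as quiescent cells that had been left to activate for 7 days on culture plastic before the sort. WT1 status and origin, liver or culture, therefore cannot be told apart in any comparison with the WT1-negative group. Replicates carry the numbers in the labels, namely 1, 8 and 29 for WT1-high, 1, 8 and 30 for WT1-intermediate, and 3, 11 and 14 for WT1-negative, and values are given in that order throughout.

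IGF-I and IGF-II are secreted growth factors that signal for growth and survival through the receptor tyrosine kinase IGF1R. IGF2R, which is also the receptor for mannose 6-phosphate, has no kinase and takes IGF-II into the cell for breakdown. The binding proteins hold the ligands in blood and tissue and either block or prolong their action. In the liver, hepatocytes are the main source of circulating IGF-I, whereas several binding proteins are made by stellate cells and other non-parenchymal cells.

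Levels are log2 normalised probe signals, on which a step of 1 is a doubling, and a difference is the mean of one group less that of another. Each probe binds its target with its own strength, so every difference was taken within a probe. Levels of different probes were used together only to pick the brightest probe of a gene and to sum marker signals. Every adjusted p is from limma, with Benjamini-Hochberg adjustment over all 20573 probes, and a call is an adjusted p under 0.05. A gene with several probes is summarised by its brightest tested probe. These are bulk samples, in which fewer cells of a type and less RNA per cell cannot be told apart.

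The arrays detected between 17253 and 19774 probes each. Mean deposited intensity was 147 to 221 on the WT1-intermediate arrays and 231 to 289 on the other 6. Of 12 stellate cell markers, 8 were measured, with Des, Reln, Pdgfra, Pdgfrb and Cygb detected on all 9 arrays. Lrat, Gfap, Lhx2 and Rgs5 did not pass the filter, and Colec11 and Hand2 were detected on no WT1-negative array. Between WT1-high and WT1-intermediate cells, Des was called higher (log2 difference 1.40, adjusted p 0.0453) and Pdgfrb lower (-1.28, adjusted p 0.00545) in WT1-high. Markers of other cells moved with the groups. The summed signal of 19 macrophage markers was 3690 to 6550 in WT1-high, 14700 to 22100 in WT1-intermediate and 48600 to 54200 in WT1-negative cells. That of 12 mesothelial markers was 39300 to 44800, 23100 to 32300 and 461 to 547. Hepatocyte markers (10 measured) summed to 7260 to 11000, 4500 to 6830 and 3700 to 5060. In culture most of that sum was Trf, with levels of 11.69, 12.22 and 11.78. Of the 10, 9 were detected on all 3 WT1-high arrays, 7 on all 3 WT1-intermediate arrays and 4 on all 3 WT1-negative arrays. The 8 skeletal muscle markers summed to 171 to 189, 212 to 294 and 6820 to 10400.

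The signals below rest on short oligonucleotides, and the probes that carry the main differences are shown first. The probes for Igf1 (ILMN_1225565) and Igfbp6 (ILMN_2689790) are given whole, with the first 30 bases of those for Igf2 (ILMN_2597769) and Igfbp5 (ILMN_2682613), as the deposited annotation lists them.
Igf1: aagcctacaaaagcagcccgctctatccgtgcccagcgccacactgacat
Igfbp6: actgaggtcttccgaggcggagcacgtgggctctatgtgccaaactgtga
Igf2: ccagcagtggccccaggtgtttgcctcaac
Igfbp5: ccccgatgtggaagagctcggctcctcttt

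The ligands were both lowest in the cells from fibrotic liver, and Igf1 was the sole member to differ by the test between the populations from that source. Igf1 rose in order from WT1-high through WT1-intermediate to WT1-negative cells, whereas Igf2 was low in both populations from liver and high in culture. Between WT1-high and WT1-intermediate, 1 of 9 genes was called, lower in WT1-high, beside 3.55% of all probes tested, or 2.64% lower and 0.904% higher. Against the WT1-negative group 5 of 9 genes were called for either population, beside 59.6% of probes for the former and 58% for the latter, so the share among members was close to that of the whole array. The groups did not overlap for 6 of 9 genes in each of these comparisons, as was so for 68.4% of probes in the first and 65.5% in the second. In both comparisons Igf1 and Igf2 were lower and Igfbp5, Igfbp6 and Igfbp7 higher in the cells from liver.

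Igf1, on chromosome 10, encodes the ligand IGF-I. Its brightest probe (ILMN_1225565) gave 7.26, 7.53 and 7.87 on the WT1-high arrays, 8.48, 8.85 and 8.91 on the WT1-intermediate arrays, and 9.998, 9.96 and 10.31 on the WT1-negative arrays. No array of a group reached the range of the next group. WT1-high cells were lower than WT1-intermediate cells by a log2 difference of -1.20 (SE 0.19, 95% CI -1.62 to -0.77), which is 2.29-fold, with an adjusted p of 0.00764. The difference ran the same way in each pair of arrays from one animal, at -1.23 for the arrays numbered 1, -1.32 for those numbered 8 and -1.04 for 29 with 30. Against WT1-negative cells, the level was 5.80-fold lower in WT1-high cells (log2 difference -2.54, SE 0.19, adjusted p 1.02e-06) and 2.53-fold lower in WT1-intermediate cells (-1.34, SE 0.19, adjusted p 0.000143).

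The step between the populations from liver depended on how the arrays were put on one scale. Before normalisation the same probe read 226, 359 and 292 on the WT1-high arrays and 297, 504 and 271 on the WT1-intermediate arrays, which overlap, and 1257, 1195 and 1581 on the WT1-negative arrays. With median scaling in place of quantile normalisation, the difference between WT1-high and WT1-intermediate was -0.49 (adjusted p 0.198) and was not called. That scaling set the median of all probes at 0.45 higher in WT1-high cells, against 0.05 with quantile normalisation, and relative to that median the Igf1 difference was -0.94. Median scaling also moved the WT1-intermediate difference from culture, to -2.09 (adjusted p 0.000114). The call between the populations from liver was made with every one of the 9 arrays left out in turn (adjusted p 0.00756 to 0.0326) and in the other 11 settings tried.

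The remaining Igf1 probes moved in the same direction with smaller differences between the populations from liver. ILMN_2769884 gave 7.26, 8.09 and 7.78 in WT1-high, 8.26, 8.68 and 8.83 in WT1-intermediate, and 9.43, 9.34 and 9.71 in WT1-negative cells. Its groups did not overlap, but the difference of -0.88 (95% CI -1.38 to -0.38) had an adjusted p of 0.0596 and was called when arrays of one animal were treated as a fixed block (adjusted p 0.00855), or with a random block by label number, in which 29 and 30 stand apart (0.0141). ILMN_2647594 differed by -0.60 (95% CI -1.07 to -0.12, adjusted p 0.18), or -0.69 (0.0433) with the random block by label number, and its WT1-high and WT1-intermediate arrays overlapped. Both were called against the WT1-negative group, at -1.78 and -2.64 for WT1-high cells and -0.90 and -2.04 for WT1-intermediate cells.

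Markers of several other cell types also differed between the populations from liver. All 19 macrophage markers had a lower mean in WT1-high cells than in their WT1-intermediate counterparts, 14 of them called. Of 10 hepatocyte markers, 9 had a higher mean in WT1-high cells, with 0 called by limma and 3 at an unadjusted p under 0.05. Against the WT1-negative group, 14 of 19 macrophage markers were called lower and 1 higher in WT1-high cells. The largest differences were those of the mannose receptor Mrc1 (log2 difference -5.69) and C1qa (-5.44). Of the 19, 16 were detected on all 3 WT1-negative arrays, among them Vsig4, Marco and Cd163. The Kupffer cell markers Clec4f and Timd4 were the 2 detected on none. WT1-intermediate cells had 8 of the 19 called lower and 5 called higher than culture, with sums of 14700 to 22100 against 48600 to 54200. Of 13 endothelial markers, 12 had a lower mean in WT1-high than on the WT1-intermediate arrays and 3 were called, with sums of 1400 to 1790 against 2440 to 2760, and 2 of 10 portal and adventitial fibroblast markers, Dpt and Pi16, were called lower. The part of RNA from these cells in the Igf1 result was not tested.

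Igf2, on chromosome 7, encodes IGF-II, a ligand made abundantly before birth and little in adult rodent liver. Its only probe (ILMN_2597769) gave 6.22, 6.00 and 6.68 in WT1-high, 6.39, 5.90 and 6.25 in WT1-intermediate, and 10.65, 10.98 and 11.08 in WT1-negative cells. The 6 arrays from liver overlapped with each other and lay far below all 3 arrays from culture. The level was 24.4-fold lower in WT1-high cells than in WT1-negative cells (log2 difference -4.61, SE 0.21, adjusted p 1.99e-08) and 26.5-fold lower in WT1-intermediate cells (-4.73, SE 0.21, adjusted p 2.26e-08). By size this was the 159th and the 106th largest difference of the 20573. WT1-high and WT1-intermediate cells differed by 0.12 (95% CI -0.34 to 0.58, adjusted p 0.82).

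H19, the imprinted non-coding RNA gene next to Igf2, and one annotated gene apart from it in RefSeq's GRCm38.p6 table, followed the same pattern. Its levels were 4.49, 5.67 and 4.57 in WT1-high, 4.94, 5.20 and 6.29 in WT1-intermediate, and 10.34, 11.54 and 10.71 in WT1-negative cells. H19 was lower than in WT1-negative cells by a log2 difference of -5.95 in WT1-high cells (adjusted p 5.08e-07) and -5.39 in WT1-intermediate cells (1.34e-06). It was detected on 2 of the 3 WT1-high arrays. Its levels on WT1-high replicates 1 and 29 lay near the lowest detected signals of those arrays (4.48 and 4.65), which limits the size of the WT1-high difference. Of the RNA-binding partners of Igf2 messages, Igf2bp3 was detected on all 3 WT1-negative arrays and on none from liver. Against culture its level was lower by at least 2.59-fold for WT1-high (adjusted p 2.84e-05) and by at least 2.57-fold for WT1-intermediate cells (4.51e-05). Igf2bp2 was not called, with differences of -0.24 and -0.41.

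Skeletal muscle genes also separated the origins. All 8 measured, among them myosin light chain Myl1 and myogenin (Myog), were lower in both populations from liver, and 6 of 8 were detected on no WT1-high array and 5 of 8 on no WT1-intermediate array. All 9 measured cell cycle genes were lower in the cells from liver as well. Their part in the Igf2 result was not tested.

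**Figure D1:**
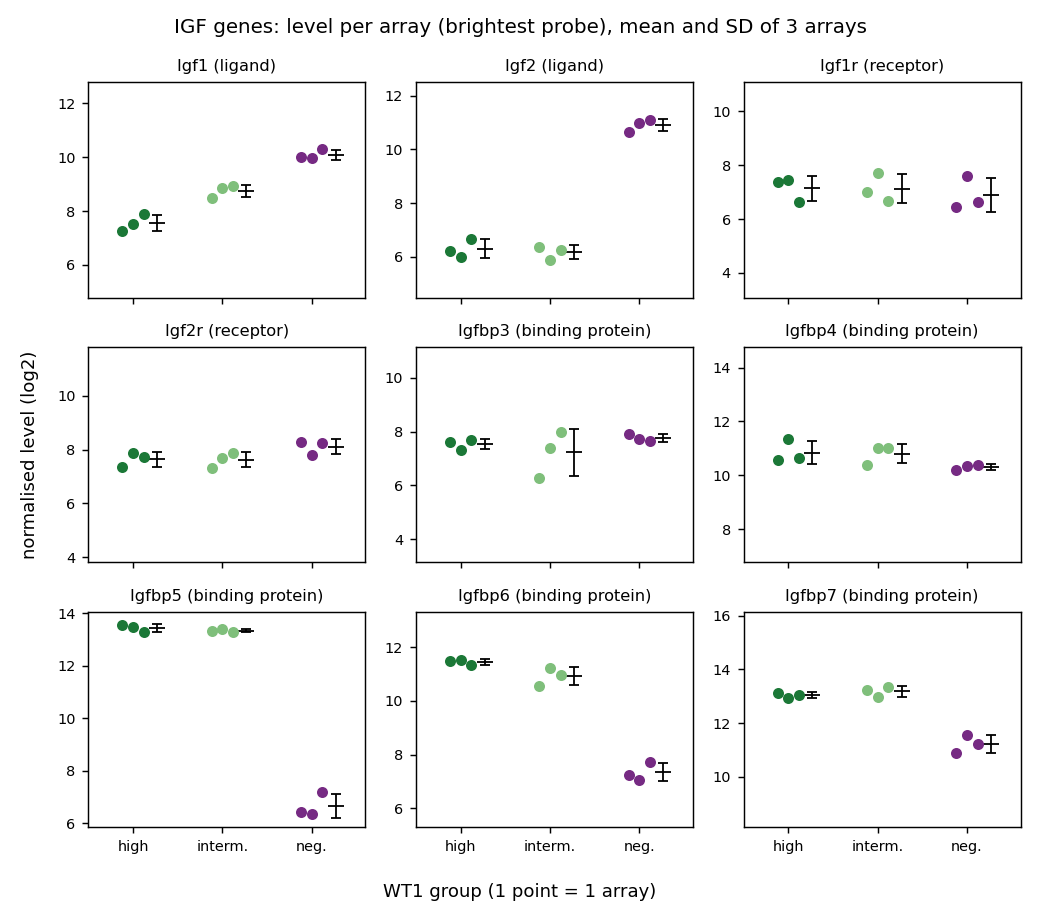
Normalised level (log2) of the brightest tested probe of each of 9 IGF genes in WT1-high, WT1-intermediate and WT1-negative aHSCs. Each point is 1 array, and the black bar is the mean with the SD of 3 arrays; the vertical axes span different ranges of levels. Igf1 climbs across the 3 groups, Igf2 is high on the WT1-negative arrays, and Igfbp5, Igfbp6 and Igfbp7 are high on all 6 arrays from liver.

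Neither receptor was called in any comparison by its brightest probe. Igf1r, on chromosome 7, encodes the signalling receptor, and its brighter probe (ILMN_1249824) gave 7.37, 7.45 and 6.62 in WT1-high, 7.01, 7.72 and 6.68 in WT1-intermediate, and 6.44, 7.60 and 6.64 in WT1-negative cells. The groups overlapped throughout. The differences were 0.01 (95% CI -0.75 to 0.77) between the populations from liver, 0.25 (-0.51 to 1.01) for WT1-high against WT1-negative and 0.24 (-0.52 to 1.00) for WT1-intermediate against WT1-negative cells, with adjusted p values of 0.991, 0.554 and 0.568. The intervals leave room for differences of up to about 1 on the log2 scale. The second probe (ILMN_1239663) differed by -0.06, -0.24 and -0.18 and was not called either.

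Igf2r, on chromosome 17, encodes the clearance receptor for IGF-II, and both of its probes had a lower mean in the cells from liver than in culture. ILMN_2931096 gave 7.34, 7.88 and 7.71 in WT1-high, 7.32, 7.68 and 7.88 in WT1-intermediate, and 8.30, 7.80 and 8.24 in WT1-negative cells. The lowest WT1-negative array lay within the range of the arrays from liver. Its differences of -0.47 (adjusted p 0.0701) and -0.49 (0.0644) against WT1-negative cells were not called. With arrays of one animal as a fixed block the adjusted p values were 0.0293 and 0.0263, but no WT1-negative array shared an animal with those from liver. That block takes out variation between animals that this comparison includes, so no conclusion is drawn from it. ILMN_2931095 differed by a similar -0.47 (95% CI -0.85 to -0.09, adjusted p 0.0359) and -0.46 (-0.84 to -0.08, adjusted p 0.041) and was called. Leaving out WT1-negative replicate 3 moved these to -0.33 and -0.32, with adjusted p values of 0.158 and 0.176, and leaving out WT1-negative replicate 14 to 0.0702 and 0.0781. The calls were also lost without WT1-high replicate 1 (0.114) or 29 (0.0641) and without WT1-intermediate replicate 1 (0.13) or 8 (0.0811), each for its own group. Median scaling moved the WT1-intermediate differences to -1.21 (adjusted p 0.0057) and -1.17 (0.00358), both called, and left those of WT1-high uncalled at -0.52 (0.175) and -0.51 (0.139). The populations from liver differed by 0.01 and -0.01 on these probes.

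**Figure D2:**
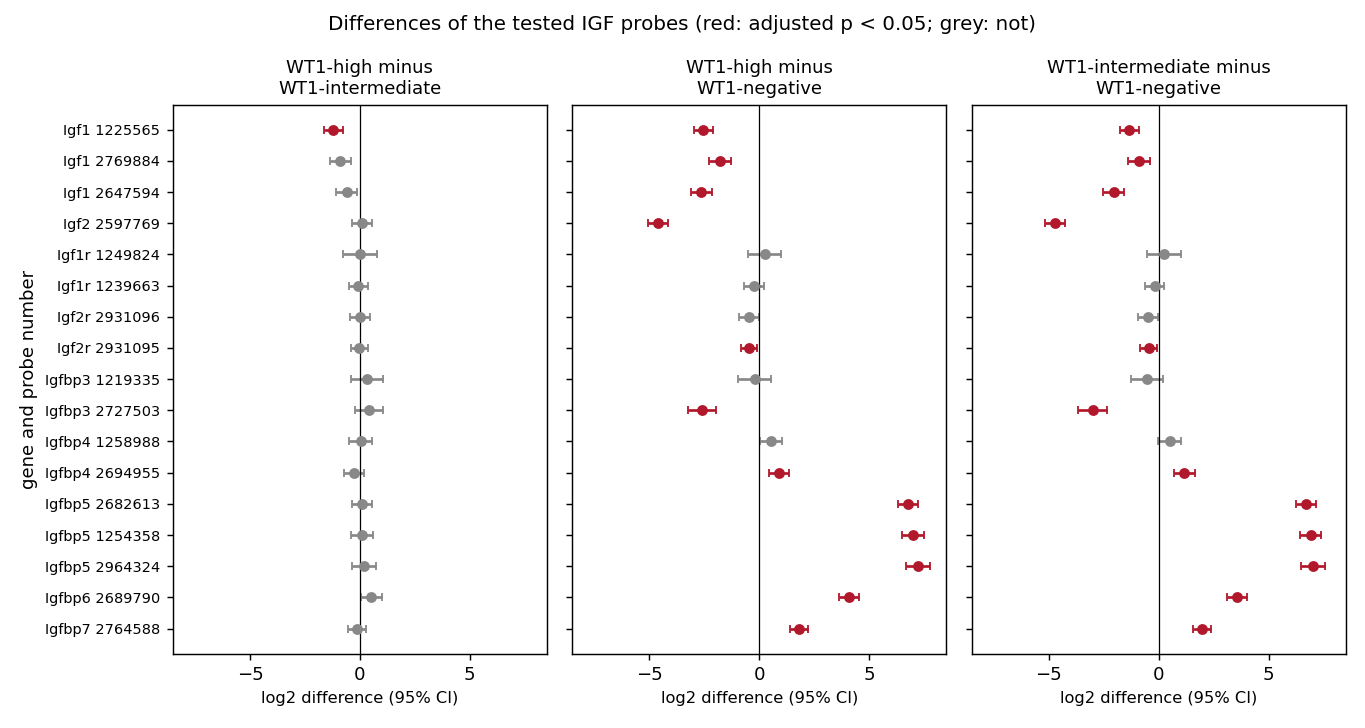
Log2 differences with their 95% confidence intervals for the 17 tested IGF probes, named by gene and probe number, in the 3 comparisons. Red points have an adjusted p under 0.05 and grey points do not. The left panel holds 1 called probe, and each of the others holds 12 of 17, 6 on either side of 0. Of all probes tested, 3.55%, 59.6% and 58% were called in the 3 comparisons. A gene with several probes counts more than once here.

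Among the binding proteins, Igfbp5, Igfbp6 and Igfbp7 were higher in both populations from liver than in culture, Igfbp4 was higher by 1 of its 2 probes, Igfbp3 depended on the probe, and Igfbp2 was at background. Between the populations from liver, limma called 0 of the 5 tested genes, where 1 had an unadjusted p under 0.05. Against the WT1-negative group 3 of 5 were called higher and 0 lower for either population, beside 26.5% of probes called higher for WT1-high and 24.4% for the WT1-intermediate group.

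Igfbp5, on chromosome 1, encodes a binding protein that attaches to extracellular matrix. Its brightest probe (ILMN_2682613) gave 13.55, 13.49 and 13.29 in WT1-high, 13.33, 13.40 and 13.30 in WT1-intermediate, and 6.44, 6.35 and 7.19 in WT1-negative cells. All 6 arrays from liver lay close together, and the 3 from culture lay far below them. The level was 110-fold higher in WT1-high than in WT1-negative cells (log2 difference 6.78, SE 0.21, adjusted p 1.17e-09) and 103-fold higher in WT1-intermediate cells (6.68, SE 0.21, adjusted p 1.55e-09). These were the 20th and the 17th largest differences of the 20573.

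The other Igfbp5 probes agreed in direction and size. ILMN_1254358 differed from WT1-negative cells by 7.00 for WT1-high and 6.91 for WT1-intermediate, and ILMN_2964324 by 7.23 and 7.03. The deposited intensities of the 3 probes ran from 4394 to 12784 on the arrays from liver and from 123 to 246 on those from culture, where all 3 were still detected on all 3 arrays. The populations from liver differed on these probes by 0.10, 0.09 and 0.20, and the interval of the brightest was -0.36 to 0.56. Igfbp5 lies beside Igfbp2 on chromosome 1, with 0 annotated genes between them, yet Igfbp2 was detected on 1 array in all.

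Igfbp6, on chromosome 15, encodes a binding protein with a preference for IGF-II. Its probe gave 11.47, 11.53 and 11.33 in WT1-high, 10.55, 11.22 and 10.98 in WT1-intermediate, and 7.24, 7.08 and 7.74 in WT1-negative cells. Against culture the level was 17.1-fold higher for WT1-high (log2 difference 4.10, SE 0.21, adjusted p 5.12e-08) and 11.8-fold higher for the WT1-intermediate population (3.56, SE 0.21, adjusted p 1.82e-07). WT1-high and WT1-intermediate arrays did not overlap, as was so for 20.1% of all probes tested. Their difference of 0.53 (95% CI 0.07 to 1.00, adjusted p 0.219) was not called, though it became 1.18 (adjusted p 0.0386) under median scaling, and it ran the same way in the 3 pairs of arrays, at 0.92, 0.32 and 0.35.

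Igfbp7, on chromosome 5, encodes a secreted relative of the classical binding proteins with low affinity for the IGFs. The probe that measured it (ILMN_2764588) gave 13.14, 12.93 and 13.06 in WT1-high, 13.22, 12.97 and 13.36 in WT1-intermediate, and 10.91, 11.57 and 11.21 in WT1-negative cells. The arrays from liver overlapped with each other and lay above all 3 from culture. Relative to culture it was 3.52-fold higher for WT1-high (log2 difference 1.81, SE 0.19, adjusted p 9.01e-06) and 3.87-fold higher for WT1-intermediate cells (1.95, SE 0.19, adjusted p 6.47e-06). WT1-high less WT1-intermediate gave -0.14 (95% CI -0.55 to 0.27).

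The other 4 Igfbp7 probes stayed at background and were not tested. Their deposited intensities lay between 73.1 and 94.2 on all 9 arrays, and a detection was made on 1 array for 1 of the probes and on 0 arrays for the other 3. These 4 probes share a run of 36 bases, which 2 of them hold in one orientation and 2 as its reverse complement, and A and T make up 76% to 80% of each. A stretch of 30 bases within that run is shown in both orientations. Capitals mark AATAAA, the hexamer of the common polyadenylation signal, or its reverse complement. Whether it acts as such a signal here was not tested. The last line holds the first 30 bases of the probe that gave signal, which shares at most 7 bases in a row with the others.
ILMN_1245755: gcttttttctgtaaatAATAAAtttttgta
ILMN_2634286: tacaaaaaTTTATTatttacagaaaaaagc
ILMN_2764588: cctgacacacttctcttaacctaacccact

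The 12 mesothelial markers were all higher in both populations from liver than in culture. Their summed signal was lower on the WT1-intermediate than on the WT1-high arrays, without overlap of the arrays. Igfbp6 did not overlap between these groups either and had the higher mean in WT1-high cells, and Igfbp5 and Igfbp7 overlapped. The part of mesothelial cells in the results on Igfbp5, Igfbp6 and Igfbp7 was not tested.

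Igfbp3, on chromosome 11, encodes the main carrier of IGF-I in blood, and its 2 probes disagreed. ILMN_1219335, the brighter, gave 7.62, 7.33 and 7.69 in WT1-high, 6.29, 7.40 and 7.99 in WT1-intermediate, and 7.90, 7.74 and 7.64 in WT1-negative cells. All 3 groups overlapped, with WT1-intermediate replicate 1 below the rest, and without WT1-intermediate replicate 30 the difference from WT1-negative cells went from -0.53 (adjusted p 0.19) to -0.93 (0.0188). Median scaling put that difference at -1.19 (0.0071), which was also called. ILMN_2727503 gave 5.82, 5.66 and 5.65 in WT1-high, 5.05, 5.02 and 5.82 in WT1-intermediate, and 7.86, 9.00 and 8.06 in WT1-negative cells.

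The second Igfbp3 probe thus set the groups far apart. Against culture it was 6.04-fold lower for WT1-high (log2 difference -2.59, SE 0.29, adjusted p 1.85e-05) and 8.05-fold lower for WT1-intermediate cells (-3.01, SE 0.29, adjusted p 7.34e-06), with no overlap, whereas the brighter probe differed by -0.21 (95% CI -0.95 to 0.52) for WT1-high against WT1-negative cells. Neither probe was called between the populations from liver, at 0.32 and 0.41. Only ILMN_2727503 was thus called against culture without a change of scaling or of the arrays used. Both probes are shown, with ILMN_1219335 cut to its first 30 bases.
ILMN_2727503: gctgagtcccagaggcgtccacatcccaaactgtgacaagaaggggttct
ILMN_1219335: gagatgttaggtgatataactgcagacacg

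Igfbp4, on chromosome 11, encodes a binding protein that mostly blocks IGF action. Its brighter probe (ILMN_1258988) gave 10.55, 11.34 and 10.64 in WT1-high, 10.40, 11.02 and 11.00 in WT1-intermediate, and 10.19, 10.36 and 10.37 in WT1-negative cells. The arrays from liver lay just above those from culture, by 0.54 (95% CI 0.03 to 1.05, adjusted p 0.0652) for WT1-high and 0.50 (-0.01 to 1.01, adjusted p 0.0847) for WT1-intermediate cells. With arrays of one animal as a fixed block these adjusted p values were 0.0132 and 0.0188, but no WT1-negative array shared an animal with those from liver. That block takes out variation between animals that this comparison includes, so no conclusion is drawn from it. Under median scaling the WT1-intermediate difference turned to -0.16 (0.681).

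The other Igfbp4 probe (ILMN_2694955) gave 10.09, 10.37 and 9.83 in WT1-high, 9.94, 10.57 and 10.58 in WT1-intermediate, and 9.12, 9.42 and 9.05 in WT1-negative cells. Against culture it was 1.87-fold higher for WT1-high (log2 difference 0.90, SE 0.21, adjusted p 0.00358) and 2.24-fold higher for WT1-intermediate cells (1.16, SE 0.21, adjusted p 0.000721), without overlap. Under median scaling the second of these was 0.46 (adjusted p 0.215).

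Igfbp2, on chromosome 1, encodes a carrier which hepatocytes make. Its 2 probes gave deposited intensities of 74.3 to 110 over the 9 arrays, and detection was reached on 1 array (WT1-high) for ILMN_1236788 and on 0 arrays for ILMN_2930897. No difference could be read from signals at this level.

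**Figure D3:**
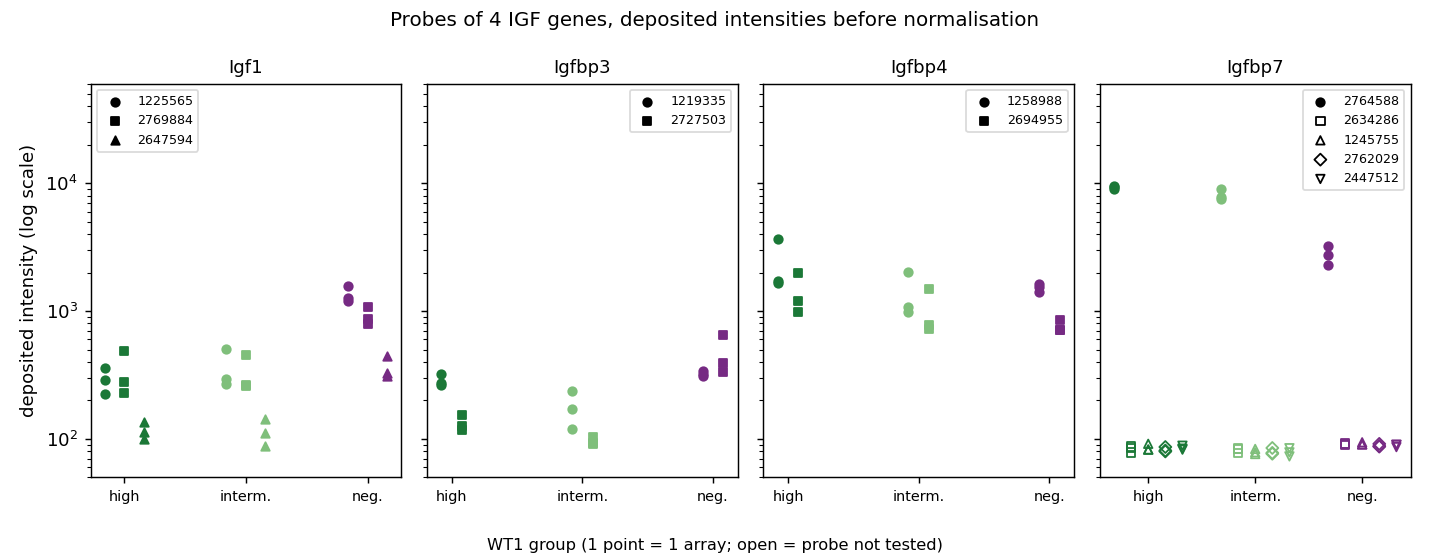
Deposited intensities, before normalisation and on a log axis, of every probe for Igf1, Igfbp3, Igfbp4 and Igfbp7, with 1 point per array and a marker shape for each probe number. Filled points are tested probes and open points are probes that did not pass the detection filter. Igfbp3 probe ILMN_2727503 is higher on the WT1-negative arrays while ILMN_1219335 overlaps there with the WT1-high arrays, and 4 of 5 Igfbp7 probes read at most 94.2 on every array.

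The bases just before the start of transcription are shown for the 3 binding proteins that were higher in the cells from liver, since these moved together, and for Igf2r, the one member that held the WT1 motif searched. The sequences are RefSeq's for GRCm38.p6, read along the gene's strand, and cover the 100 bases before an annotated start; all 10 genes had an entry, with 4 starts for Igf2 and 2 for Igfbp2, or 14 windows. Capitals mark GGGCGG, which is the GC box, or GCGGGGGCG, which is one form of the site shared by WT1 and the EGR factors and can overlap with the former. TATAAA, which is the TATA box, was searched as well, and every motif was searched on both strands.
Igfbp5, chr1:72874866-72874965, minus strand: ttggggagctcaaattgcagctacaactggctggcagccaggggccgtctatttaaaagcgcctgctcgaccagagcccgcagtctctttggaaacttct
Igfbp6, chr15:102144086-102144185, plus strand: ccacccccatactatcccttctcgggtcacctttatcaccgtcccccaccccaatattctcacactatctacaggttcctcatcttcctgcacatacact
Igfbp7, chr5:77408046-77408145, minus strand: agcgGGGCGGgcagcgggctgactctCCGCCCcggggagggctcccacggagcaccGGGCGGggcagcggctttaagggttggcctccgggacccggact
Igf2r, chr17:12769707-12769806, minus strand: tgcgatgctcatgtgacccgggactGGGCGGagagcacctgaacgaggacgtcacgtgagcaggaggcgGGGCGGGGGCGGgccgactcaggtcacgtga

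GCGGGGGCG lay 29 bases before the Igf2r start and in no other of the 14 windows, against 1.64% of the 32851 windows of this length in the table. GGGCGG was present in 6 of the 14 windows, of 5 genes (Igf2, Igf1r, Igf2r, Igfbp2 and Igfbp7), against 24.7% of all windows. TATAAA was in 1 window, that of Igfbp4, 28 bases before its start, against 5.56%. The windows of Igfbp5 and Igfbp6 held none of these motifs, so the 3 genes that were higher together had none of them in common in this stretch.

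Other genes of the pathway were taken from 5 lists with 42 genes, of which 32 were tested. Between the populations from liver, limma called 0 of them, where 5 had an unadjusted p under 0.05 and median scaling called 4. The median difference over the 32 was 0.12, beside 0.05 over all probes tested. For WT1-high against WT1-negative cells 11 were called higher and 9 lower, with a median of 0.09 beside -0.10 over all probes. For WT1-intermediate cells 7 were called higher and 6 lower, with a median of 0.02 beside -0.13, and 26.5% and 33.1% of all probes were called higher and lower in the first of these comparisons and 24.4% and 33.6% in the second.

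Of the proteases that cut the binding proteins and free the ligands, Pappa and Htra1 were higher in the cells from liver, and both inhibitors on the list were lower. Of 5 genes tested, 2 were called higher and 2 lower for either population. Array-wide shares against culture were 26.5% higher and 33.1% lower in WT1-high cells, and 24.4% and 33.6% in WT1-intermediate cells. With calls this frequent, a list of 5 genes cannot show whether its pattern stands apart from the whole array. Pappa, the protease for IGFBP4 and IGFBP5, gave 8.05, 7.30 and 6.46 in WT1-high, 6.56, 7.12 and 6.29 in WT1-intermediate, and 5.10, 5.11 and 5.39 in WT1-negative cells, with differences from culture of 2.07 (SE 0.34, adjusted p 0.000318) and 1.45 (0.00356). Htra1, a secreted serine protease, was higher by 1.92 (adjusted p 3.73e-05) and 1.75 (8.3e-05). The stanniocalcins Stc1 and Stc2, which bind and inhibit PAPP-A and were singled out after their values were seen, differed by -1.13 and -1.03 for WT1-high cells. In WT1-intermediate cells Stc2 differed by -0.94, and Stc1, detected on 0 of those 3 arrays and on 1 of the WT1-high arrays, was lower by at least 2.09-fold (adjusted p 0.000622). Adam12, at 0.60 (adjusted p 0.0628) and 0.25 (0.412), was not called.

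The list of the insulin receptor and adaptors, which also holds the phosphatase Ptpn1, had calls in the higher direction alone. These were 5 of 7 tested for WT1-high and 3 of 7 for WT1-intermediate cells, Ptpn1 among the latter. Of all probes tested, 26.5% and 24.4% were called higher in these comparisons. Irs2, the docking protein that links the receptor to PI3-kinase, gave 8.91, 8.98 and 8.17 in WT1-high, 8.96, 9.18 and 8.87 in WT1-intermediate, and 7.68, 7.99 and 7.54 in WT1-negative cells, with differences of 0.95 (adjusted p 0.00331) and 1.26 (0.000543). Grb14, an adaptor that inhibits the insulin receptor, was detected on all 6 arrays from liver and on 0 from culture. Its level was above that of culture by at least 2.37-fold for WT1-high (adjusted p 4.05e-05) and at least 1.93-fold for WT1-intermediate (0.000244). Insr and Irs1 did not pass the detection filter.

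In the PI3-kinase, AKT, FOXO and mTOR arm, 4 of 15 genes were called higher and 5 lower for WT1-high, and 2 higher and 2 lower for WT1-intermediate cells. Of all probes tested, 26.5% were called higher and 33.1% lower in the first comparison, and 24.4% and 33.6% in the second. The calls of this arm are thus not set apart from the whole array. Eif4ebp1, the translation repressor that mTOR switches off, gave 8.88, 8.98 and 9.70 in WT1-high, 9.52, 9.08 and 9.63 in WT1-intermediate, and 11.04, 10.91 and 10.90 in WT1-negative cells. It was lower in the cells from liver, with differences of -1.77 (adjusted p 4.69e-05) and -1.54 (0.000144), without overlap.

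The other carriers of IGF, Igfbp1 and Igfals, both hepatocyte products, were near the detection limit, on 3 and 4 of 9 arrays, and neither was called in any comparison. Igfbp1 lies beside Igfbp3 on chromosome 11 with 0 annotated genes between them.

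**Figure D4:**
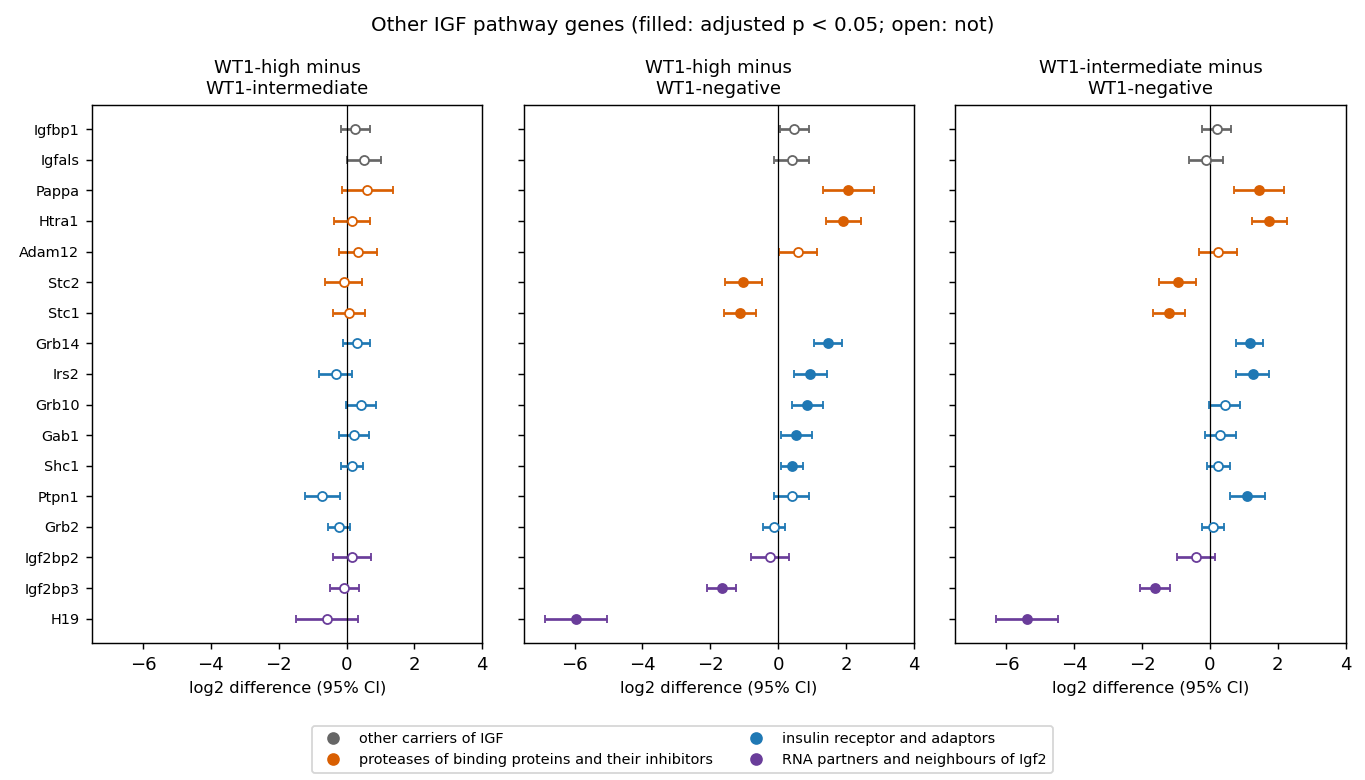
Log2 differences with 95% confidence intervals for the 17 tested genes of 4 IGF pathway lists, those other than the PI3-kinase arm, in the 3 comparisons, coloured by list and ordered within each list by WT1-high minus WT1-negative. Filled points have an adjusted p under 0.05. No point is filled in the left panel, and H19, at the foot of the other panels, lies farthest from 0.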

How the data were processed

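Summary probe profiles were exported from BeadStudio by the authors as a linear-scale intensity without background correction or normalisation, beside a deposited detection p-value for each probe. The deposited in vivo and in vitro tables were used, and a joined copy equalled them (largest difference 0). Of the columns numbered 29, the GFP-low one stands for WT1-intermediate replicate 30, since no other sample of this group lacked a column. For this array detection was computed from the negative controls, which gave the deposited calls on the other 8 arrays (0 differed). limma 3.58.1 in R 4.3.3 followed the authors' outline: background from 936 negative controls, quantile normalisation and log2 (neqc, offset 16), then a linear model of 3 groups over 9 arrays with a moderated two-sided test (6 residual and 5.19 prior degrees of freedom). A probe was tested where its detection p was under 0.05 on 3 or more arrays. The steps were tested on simulated data. For a gene with 0 detections in its dimmer group, the fold is a bound against the lowest detected signal of each array.

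Deviations from the group means correlated at 0.352 for the in vivo arrays numbered 1, 0.338 for 8 and 0.468 for 29 with 30, and at -0.386 to 0.034 otherwise, and the study gives 3 animals, so these were taken as pairs. The study's text names no pairing for its linear model, and none was used in the main one here. Pathway genes named were the 2 largest called differences per list and comparison; some genes of the PI3-kinase arm are not reported here. Alternatives covered normalisation, background, filter, samples, weights, blocks and each array left out. The members and lists were chosen with earlier results of these data known. The study counts replicates as animals in vivo and as independent cell isolations in vitro. The number of arrays limits the precision.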

Additional observations from a re-analysis of the deposited data

How the results depend on the processing

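Of the values of member probes under the alternatives, 965 of 1003 kept their side of the threshold, 15 lost a call and 23 gained one. None with a call in either setting changed sign. The 965 include values without a call that did change sign. For Igfbp4 probe ILMN_1258988, WT1-intermediate against WT1-negative cells went from 0.50 to -0.16 under median scaling. Differences of Igf2, Igfbp5, Igfbp6 and Igfbp7 from WT1-negative cells were called in every setting run, as were those of every Igf1 probe and of Igfbp3 probe ILMN_2727503. The calls lost or gained concerned Igf1 and Igfbp6 between the populations from liver, and Igf2r, Igfbp3 and Igfbp4 against culture. Blocks by replicate number and by animal changed no other call of a member than those of Igf1, Igf2r and Igfbp4. With the fixed block by animal, ILMN_2931096 of Igf2r reached adjusted p values of 0.0293 and 0.0263 against culture. The cultures shared no animal with the arrays from liver, so no conclusion is drawn from that block for Igf2r or Igfbp4. Its gained calls for these genes are among the 23. A fixed block with 29 and 30 apart could be run for WT1-high against WT1-intermediate alone, as could normalising the in vivo arrays by themselves.

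The number of all probes called between WT1-high and WT1-intermediate was 730. It was 2684 with median scaling, 358 with the in vivo arrays normalised alone, 473 without background correction, 335 without a filter, 339 with the compared groups alone, 1656 with a fixed replicate block by animal, and 1752 with a random block by label number, which keeps 29 and 30 apart. Median scaling put 2563 of its 2684 calls higher in WT1-high cells, against 186 of 730. Leaving out 1 array gave 324 to 866 (the lowest without WT1-intermediate replicate 1, then 333 and 371 when WT1-high replicate 8 or 29 was dropped). Keeping only probes detected on all 9 arrays, which tests fewer probes, gave 7970 calls for WT1-high and 7716 for WT1-intermediate against WT1-negative cells (12258 and 11935 before), and 7 of the pathway genes in place of 13 for the latter. Median scaling called 4 pathway genes in place of 0 between the populations from liver and 10 in place of 20 for WT1-high against WT1-negative cells. The cause of the other shifts was not tested. Signal near background limits Igfbp2, Igfbp1, Igfals and 4 of the Igfbp7 probes, and the size of the H19 difference between WT1-high cells and culture.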
